A study of Mus musculus with 14 samples.

Results

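The respiratory chain genes of mouse liver tumours were examined in bulk polyA RNA from 14 hepatocellular carcinomas, with the subunits encoded by mitochondrial DNA set against those encoded in the nucleus. Members were the gene symbols of the deposited expression table that name subunits of complexes I to V, namely mt-Nd, mt-Co, mt-Cytb and mt-Atp, Nduf with a letter and a number, Sdha to Sdhd, Uqcr, Cox4 to Cox8, and Atp5. The patterns matched 113 of 29923 symbols. Of these, 6 ended in the pseudogene suffix -ps and 6 more in -ps with a number, and both sets were left out, which gave 101 members. Among the members, 13 were mitochondrially encoded and 88 nuclear encoded. Nuclear subunits with other names, among them Ndufab1 and Cyc1, were outside the patterns.

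All animals were C57BL/6 mice. Tumours followed tail-vein injection of transposon plasmids with the SB100 transposase, and the driver plasmid carried MYC with luciferase (Luc) or the same with antigens named OVA, SIN and SIY (LucOS). Each driver was combined with an Aoah plasmid or the empty vector, which gave 4 Luc Aoah, 4 Luc vector, 3 LucOS Aoah and 3 LucOS vector tumours. A CTNNB1 plasmid is also listed without the tumours that received it, and the labels describe an anti-PD1 treatment without saying that these tumours had it. The age, sex and time after injection of the animals were not given in the sources used here, and the numbered tumours are not said to come from separate animals, so p-values measure only the spread between these samples.

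The respiratory chain passes electrons from NADH and succinate through complexes I to IV to oxygen and pumps protons across the inner mitochondrial membrane, and complex V, the ATP synthase, uses that gradient to make ATP. Mitochondrial DNA encodes core membrane subunits of complexes I, III, IV and V, transcribed as long precursors inside the organelle, while complex II is wholly nuclear encoded. Nuclear subunits are made in the cytosol and imported, so each of the mixed complexes needs products of both genomes, and hepatocytes are rich in mitochondria.

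Several mitochondrial genes have near-identical copies in nuclear DNA, and the printed stretches show how little separates a gene from its copy for a counting program. On mouse build GRCm38, annotated by GENCODE M21, 7 such copies lie on the minus strand of chromosome 1 with at least 99% identity over at least 95% of the copy. Some copies are partial: Gm29216 aligned over 483 of the 1545 bases of mt-Co1 and Gm28439 over 876 of the 1378 bases of mt-Nd4. In 5 pairs the aligned bases held 0 mismatches. The remaining pairs had 1 mismatch each, shown in capitals, with positions counted from 1 at the 5′ end of the mitochondrial gene. For mt-Nd3 (chrM:9459-9806, plus strand) against its copy Gm28438 (chr1:24612775-24613119) it was T3C, and for mt-Co1 (chrM:5328-6872, plus strand) against Gm29216 (chr1:24615706-24616197) it was A1066T.
mt-Nd3: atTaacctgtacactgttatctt
Gm28438: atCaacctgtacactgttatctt
mt-Co1: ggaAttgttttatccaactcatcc
Gm29216: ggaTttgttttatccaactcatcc

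Reads of these pairs were divided between gene and copy. In the 14 tumours the copy held 89.1% to 93.2% of the summed TPM (a read share corrected for transcript length) of mt-Atp6 and Gm10925, 78.2% to 86.6% of mt-Co2 and Gm28661, 88.3% to 92.9% of mt-Co3 and Gm28437, and 64.4% to 76.4% of mt-Nd3 and Gm28438. The shares were 24.4% to 58.5% for mt-Nd4l and Gm10222, 8.63% to 25.0% for mt-Co1 and Gm29216, and at most 0.911% for mt-Nd4 and Gm28439. The listed levels of these genes are therefore uncertain, and levels summed with the copy are given beside them. The genes of a pair that lie on 1 shared mRNA show the size of the matter: mt-Atp8 stood at 11.3 to 20.8 times the TPM of mt-Atp6 as listed and at 1.09 to 1.503 times with the copy added. In the same way mt-Nd4l stood at 0.338 to 0.644 times mt-Nd4 as listed and at 0.799 to 1.04 times with the copies added. For mt-Co1 and mt-Nd4 the copy is much shorter than the gene, so shares and sums of TPM there do not stand for reads.

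Upstream sequence of 4 nuclear members is shown because the members described below differ in the motifs they hold near the start. Of 88 nuclear members 69 matched a RefSeq promoter (GRCm38.p6, 250 bases before to 50 after the start). The NRF1 core motif CGCATGCG was in 9 of the 69 (13.0%) against 2.07% of 27025 genes, the ETS motif CCGGAAG bound by GABP in 17 (24.6%) against 9.93%, the YY1 motif AAGATGGC in 10 (14.5%) against 3.19%, and the estrogen-related receptor motif TCAAGGTCA in 2 (2.90%) against 0.466%. Both strands were searched, and no 2 of these motifs contain one another. Each line gives the 120 bases before the start on the gene's own strand, with any of the 4 motifs in capitals: Ndufa11 (chr17:56717642-56717761, plus strand) with NRF1, Sdhd (chr9:50603850-50603969, minus strand) and Atp5e (chr2:174464102-174464221, minus strand) with ETS, and Cox8b (chr7:140900447-140900566, minus strand) with none in this window.
Ndufa11: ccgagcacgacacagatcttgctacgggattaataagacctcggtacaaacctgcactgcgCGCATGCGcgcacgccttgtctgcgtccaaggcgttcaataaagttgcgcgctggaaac
Sdhd: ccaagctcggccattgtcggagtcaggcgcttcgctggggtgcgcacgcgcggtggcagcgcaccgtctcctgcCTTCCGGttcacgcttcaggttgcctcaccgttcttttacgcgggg
Atp5e: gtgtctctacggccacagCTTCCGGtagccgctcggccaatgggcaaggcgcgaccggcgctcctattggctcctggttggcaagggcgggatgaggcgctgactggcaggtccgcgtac
Cox8b: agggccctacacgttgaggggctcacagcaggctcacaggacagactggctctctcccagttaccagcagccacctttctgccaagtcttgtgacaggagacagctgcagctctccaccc

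Levels were deposited as log2(TPM + 1), and the depth of the libraries is unknown. A gene was tested where 3 or more tumours reached 1 TPM, which held for 13466 genes and 99 members, 13 mitochondrial and 86 nuclear. Cox6a2 and Ndufa11b did not pass. Between 11478 and 12836 genes reached 1 TPM in a tumour. The delivered gene Aoah stood at 283.72 to 685.24 TPM in Luc Aoah, 576.03 to 931.15 TPM in LucOS Aoah and 1.28 to 3.43 TPM in LucOS vector tumours, and at 18.57, 0.74, 54.76 and 0.89 TPM in Luc vector 1 to 4. All 15 hepatocyte markers were detected, with a summed level of 6845 to 35487 TPM. Luc Aoah 3 stood apart in small noncoding RNA, which took 9.25% of its TPM against 1.06% to 2.37% elsewhere, and in the mitochondrial ribosomal RNA mt-Rnr1, at 6554 TPM against 1009 to 3802 TPM. This RNA rose in Luc with Aoah (1.08, limma adjusted p = 0.0466), as 1 of the 2 mitochondrial ribosomal RNA. It stood at 1936, 1968, 6554 and 3802 TPM in Luc Aoah 1 to 4. The Luc vector 1 to 4 values were 1989, 1009, 2023 and 1155 TPM, so the groups overlapped.

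The mitochondrially encoded members varied far more between tumours than the nuclear ones. Together they took 4.14%, 5.21%, 2.13% and 5.45% of the TPM of Luc Aoah 1 to 4, and 5.09%, 3.21%, 8.08% and 5.09% of Luc vector 1 to 4. In LucOS they took 6.07%, 5.91% and 15.9% with Aoah and 4.09%, 6.10% and 3.19% with vector. LucOS Aoah 3 was the highest of all 14 tumours and Luc Aoah 3 the lowest, and the groups overlapped in both models. With the nuclear copies added the range was 4.95% in Luc Aoah 3 to 25.3% in LucOS Aoah 3.

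The 88 nuclear members took 4.69%, 4.10%, 5.25% and 4.95% of the TPM of Luc Aoah 1 to 4 and 3.89%, 4.09%, 3.21% and 3.71% of Luc vector 1 to 4. In LucOS they took 4.80%, 5.15% and 3.19% with Aoah and 5.18%, 3.34% and 4.25% with vector. All Luc Aoah tumours lay above all Luc vector tumours, with 4.10% in Luc Aoah 2 just above 4.09% in Luc vector 2, and the LucOS groups overlapped.

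**Figure D1:**
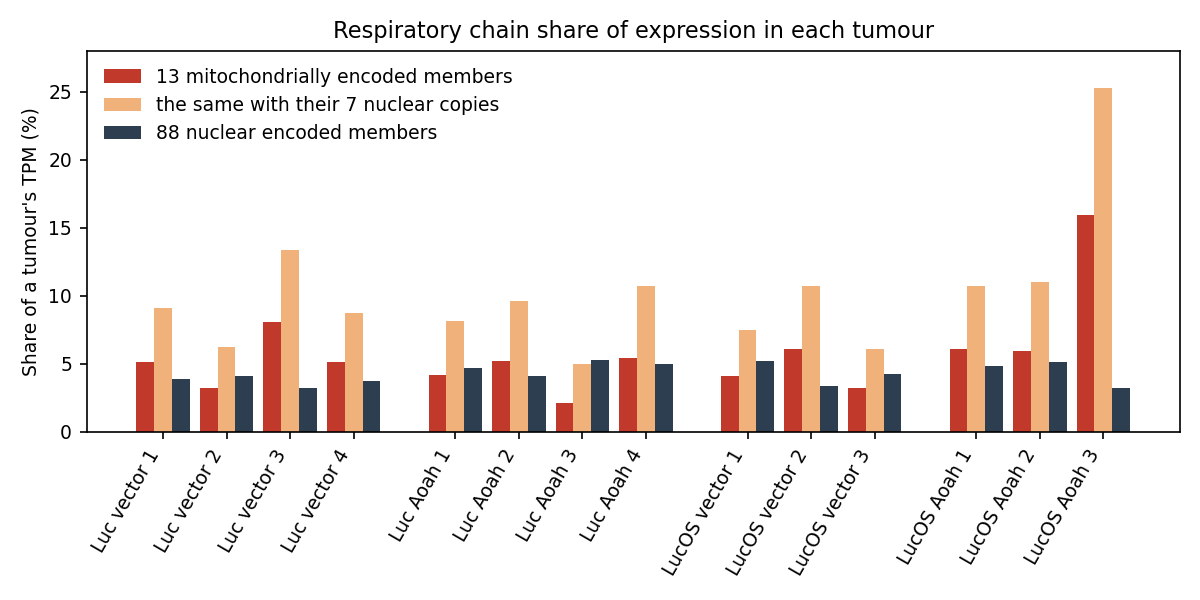
Share of each tumour's TPM (%) taken by the 13 mitochondrially encoded members, by the same with their 7 nuclear copies, and by the 88 nuclear encoded members. Each set of bars is 1 tumour. LucOS Aoah 3 has the highest mitochondrial share (15.9%) with the lowest nuclear share (3.19%), and Luc Aoah 3 the lowest mitochondrial share (2.13%) with the highest nuclear share (5.25%).

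The shares tended to opposite sides across tumours. The ratio of mitochondrial to nuclear TPM ran from 0.406 in Luc Aoah 3 to 4.99 in LucOS Aoah 3, and from 0.944 to 7.91 with the copies. Over the 14 tumours the shares had Pearson's r of -0.57 and Spearman's rho of -0.54, and r of -0.49 and rho of -0.36 without Luc Aoah 3 and LucOS vector 1, the farthest from the median nuclear share. Without LucOS Aoah 3, the highest in mitochondrial share, r was -0.48 and rho -0.43. These are descriptions, since both shares are parts of 1 total in each library and a larger share of any RNA lowers the others. The nuclear share also ran with the share of cytosolic ribosomal protein genes (r = 0.62, rho = 0.62), which was lowest in LucOS Aoah 3 at 13.9% and reached 37.0% in LucOS vector 1.

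Within the mitochondrial genome the members did not vary alike. From the lowest to the highest tumour the 13 genes spanned 2.36-fold (mt-Nd3) to 29.3-fold (mt-Nd4l), with a median of 7.56-fold. Of the 13 genes, 12 were highest in LucOS Aoah 3 and 11 were lowest in Luc Aoah 3. Genes of shared precursors are not independent replicates, so counts over them below are descriptions. The 79 nuclear members at 10 TPM or more in every tumour spanned 1.39-fold (Cox5b, a subunit of complex IV) to 4.22-fold, with a median of 1.89-fold. Their lowest level was most often in Luc vector 3 (34 genes) or LucOS Aoah 3 (23 genes).

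mt-Nd4, a proton-pumping subunit of complex I, showed the wide pattern. It stood at 1966, 2855, 777 and 2183 TPM in Luc Aoah 1 to 4 and at 2979, 1282, 5822 and 3380 TPM in Luc vector 1 to 4. In LucOS it stood at 3698, 3337 and 12777 TPM with Aoah and at 2350, 3194 and 1413 TPM with vector. The Luc groups overlapped, and every LucOS Aoah tumour lay above every LucOS vector tumour, with LucOS Aoah 3 far above its replicates.

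mt-Nd3, a small membrane subunit of the same complex, showed the narrow one. It stood at 2316, 2180, 2290 and 4084 TPM in Luc Aoah and at 2161, 2063, 2268 and 1734 TPM in Luc vector 1 to 4. In LucOS it stood at 2829, 3137 and 2343 TPM with Aoah and at 1768, 1770 and 1747 TPM with vector. Luc Aoah 4 stood above its replicates, and the LucOS groups did not overlap. Summed with its copy, mt-Nd3 spanned 7882 to 11466 TPM in the Luc tumours with Aoah and 5931 to 7749 TPM without it, and stood at 8685 to 9705 TPM against 5328 to 6444 TPM in LucOS, so that neither model's groups overlapped. The log2 differences of the sums, 0.46 in Luc (SE 0.17, limma adjusted p = 0.0607) and 0.64 in LucOS (SE 0.20, adjusted p = 0.157), did not pass. The ratio of mt-Nd4 to mt-Nd3 ran from 0.339 in Luc Aoah 3 to 5.45 in LucOS Aoah 3, and from 0.0987 to 1.48 with the copies.

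**Figure D2:**
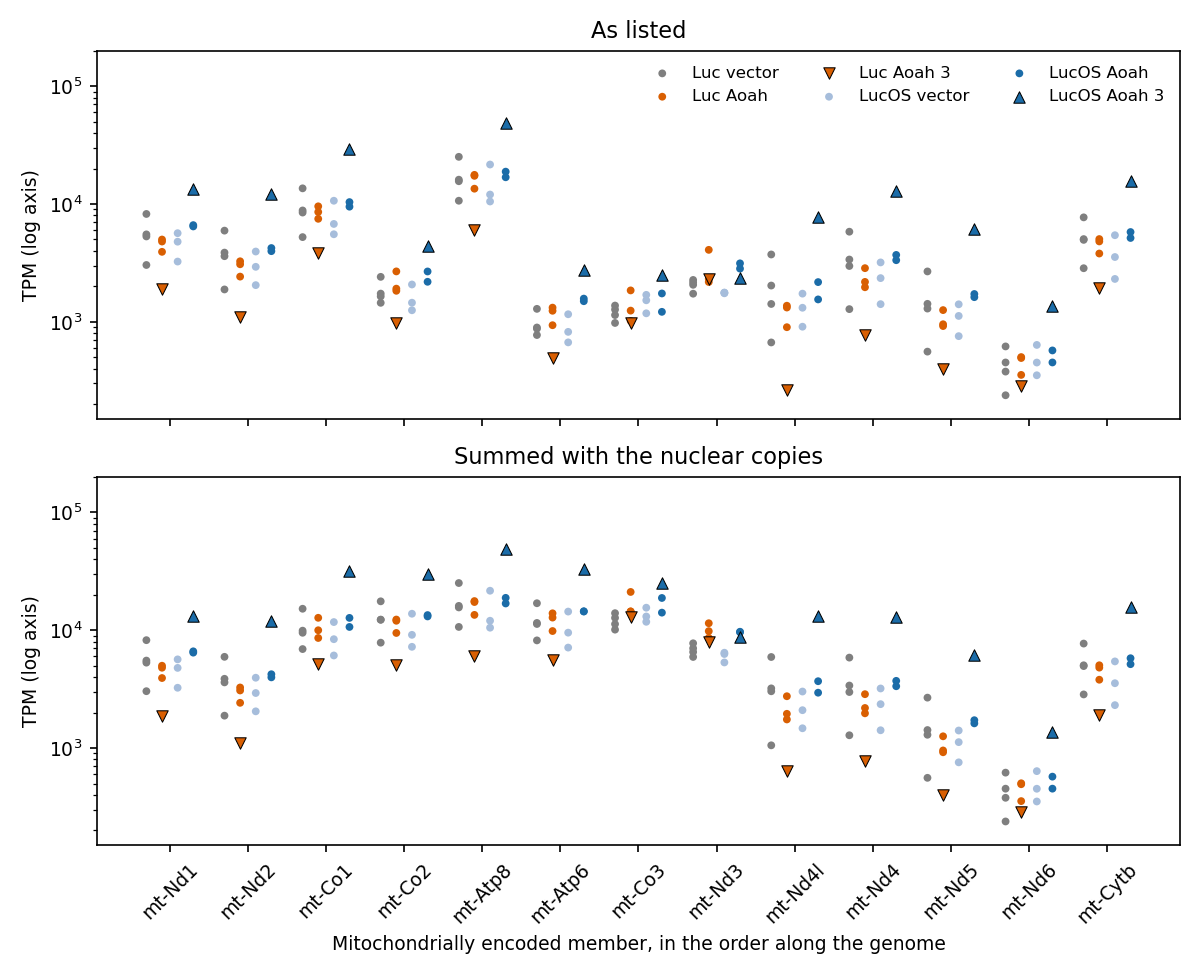
TPM (log axis) of the 13 mitochondrially encoded members, each point 1 tumour and each colour 1 group, as listed (upper panel) and summed with the nuclear copies (lower panel). LucOS Aoah 3 (triangles up) is highest for 12 of 13 genes as listed and Luc Aoah 3 (triangles down) lowest for 11, and mt-Nd3 and mt-Co3 spread least.

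The first comparison set Aoah against vector in the tumours without antigens. Nuclear members lay higher with Aoah: 68 of 86 had positive differences, their median was 0.33 on the log2(TPM + 1) scale against -0.24 for all 13466 genes, and 8 rose past a limma adjusted p of 0.05 while none fell. Among all genes 7.93% rose and 14.3% fell by that rule, so the 8 of 86 is near the background. In 28 nuclear members every Luc Aoah tumour lay above every Luc vector tumour, against 11.8% of all genes, and in 1, Atp5b, below, against 9.10%. The mitochondrial members had a median of -0.36, with 11 of 13 below 0, and none passed; at an unadjusted p under 0.05 there were also 0 of 13, against 41.8% of all genes. Median-ratio scaling moved the median of all genes to 0.02, of nuclear members to 0.64 and of mitochondrial members to -0.04.

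The authors' deposited table, made with DESeq2, gave more calls in the same direction. In it, with an adjusted p for 86 nuclear members, 42 were higher with Aoah and 1, Ndufa10, was lower, against 15.6% and 16.1% of all genes. The median log2 fold change there was 0.62 for nuclear members, -0.06 for mitochondrial members and 0.00 for all genes. No mitochondrial member passed in the authors' deposited table, where the smallest adjusted p was 0.0580 for mt-Nd3.

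Supernumerary subunits of complex I, which surround the catalytic core, held 6 of the 8 rises. Of 32 accessory members 30 had positive differences, 6 rose and none fell, with a median of 0.43, against 7.93% of all genes higher and 14.3% lower. By the authors' deposited table, of these genes 20 were higher and 1 lower, against 15.6% and 16.1% of all genes there. Accessory subunits were not tested against the other members. Medians by role, here and for the core subunits and complex V below, were not adjusted for transcript length. Length ran with the Luc differences across nuclear members (Spearman's rho of -0.47). Ndufb3, a membrane arm subunit, stood at 182, 177, 211 and 222 TPM in Luc Aoah 1 to 4 and at 124, 126, 102 and 131 TPM in Luc vector 1 to 4. The groups were well apart, and the log2 difference was 0.71 (SE 0.16, limma adjusted p = 0.00902).

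Ndufb8, of the same arm, was the most abundant nuclear subunit of complex I on average, with Ndufa4 and Ndufa4l2 counted in complex IV. It stood at 773, 568, 914 and 793 TPM in Luc Aoah and 459, 549, 338 and 429 TPM in Luc vector tumours. The groups were separated only by the gap between Luc Aoah 2 and Luc vector 2 (log2 difference 0.78, SE 0.26, limma adjusted p = 0.0442). Ndufs5 stood at 300.06, 295, 300.42 and 339 TPM against 235, 224, 199.85 and 220 TPM, with no overlap and little spread (0.49, SE 0.14, limma adjusted p = 0.0297). Ndufb4c, a close relative of Ndufb4 with which it may share reads, rose by 0.96, Ndufa11 by 0.57 and Ndufa1 by 0.45 (adjusted p = 0.0433, 0.0463 and 0.0466). Ndufa1 overlapped between the groups, with 200.18 TPM in Luc Aoah 2 against 207 TPM in Luc vector 2.

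The nuclear core subunits of complex I, which hold the flavin and iron-sulphur clusters that take electrons from NADH, had a median of -0.16 over 7 genes, with 5 of them below 0, and none passed with limma. In the authors' deposited table the median was 0.13, 4 of the 7 were above 0 and 2 were higher, against 15.6% of all genes. These 2 were Ndufv2 (adjusted p = 0.0191) and Ndufs8 (adjusted p = 0.0420). The median of all genes was -0.24 with limma and 0.00 in the authors' deposited table. Set against it, the core median was slightly higher in both, and 4 of the 7 lay above it with limma. In the limma fit Ndufv1, the subunit that binds NADH, differed by -0.39 (adjusted p = 0.180) and Ndufa10, an accessory subunit, by -0.68 (adjusted p = 0.0735).

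Complexes II and III held no limma call in Luc tumours. The authors' deposited table had 1 of 4 and 4 of 8 members higher, against 15.6% of all genes there, and 1 of 4 is near that share. The members were Sdhd (adjusted p = 0.0143) in complex II and Uqcrb, Uqcrq, Uqcrh and Uqcr10 in complex III. Sdhd, a membrane anchor of succinate dehydrogenase, stood at 592, 475, 643 and 557 TPM in Luc Aoah against 416, 446, 283 and 368 TPM in Luc vector tumours, without overlap (0.59, SE 0.25, limma adjusted p = 0.0864). Sdha, the flavoprotein, stood at 90.9, 134, 54.5 and 96.8 TPM against 133, 96.9, 178 and 172 TPM, with overlap (-0.65, SE 0.28, limma adjusted p = 0.0963). Sdhc, the other anchor subunit, stood at 134, 146, 117 and 123 TPM against 143, 134, 118 and 149.7 TPM, with overlap (-0.07, SE 0.19, limma adjusted p = 0.803). Of 8 nuclear members of complex III 7 had positive differences, with a median of 0.33. Uqcr10, a small subunit and the most abundant one of that complex, differed by 0.51 (adjusted p = 0.190), and the core protein Uqcrc1 by -0.50 (adjusted p = 0.125).

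In complex IV, cytochrome c oxidase, 2 of 18 nuclear members rose, a share near the 7.93% of all genes, and both are the isoforms known from heart, skeletal muscle and brown fat. Cox8b stood at 4.06, 6.81, 14.2 and 6.23 TPM in Luc Aoah 1 to 4 and at 0.00, 0.00, 1.15 and 1.92 TPM in Luc vector 1 to 4. In LucOS it stood at 0.37, 0.68 and 0.00 TPM with Aoah and at 0.64, 0.23 and 0.00 TPM with vector. Only Luc Aoah tumours exceeded 2 TPM, and the Luc difference was 2.36 (SE 0.38, limma adjusted p = 0.00124). Outside Luc Aoah only Luc vector 3 and 4 reached 1 TPM, so Cox8b met the filter of 3 tumours through the group where it was high. Its liver counterpart Cox8a spanned 346 to 451 TPM in the Luc tumours with Aoah, and 429 to 480 TPM without it (-0.20, adjusted p = 0.347), so Cox8b made up at most 3.95% of the summed TPM of the pair.

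Cox7a1 stood at 11.0, 27.4, 32.8 and 23.6 TPM in Luc Aoah and at 5.65, 8.72, 7.58 and 8.70 TPM in the Luc vector group. The LucOS levels were 7.28, 15.3 and 5.35 TPM with Aoah and 12.7, 4.66 and 5.99 TPM with vector. The Luc groups did not overlap and the LucOS groups did (Luc difference 1.43, SE 0.37, limma adjusted p = 0.0192). Its liver counterpart Cox7a2 differed by 0.38 (adjusted p = 0.224), and Cox7a1 made up 0.827% to 4.60% of the summed TPM of the pair. Cox4i1, the ubiquitous isoform of its subunit and the most abundant nuclear member of the complex, spanned 1541 to 2066 TPM in the Luc tumours with Aoah, and 1086 to 1534 TPM without it (0.50, adjusted p = 0.0904). The alternative form Cox4i2, known from lung and from low oxygen, stayed between 0.19 and 3.42 TPM in all tumours.

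**Figure D3:**
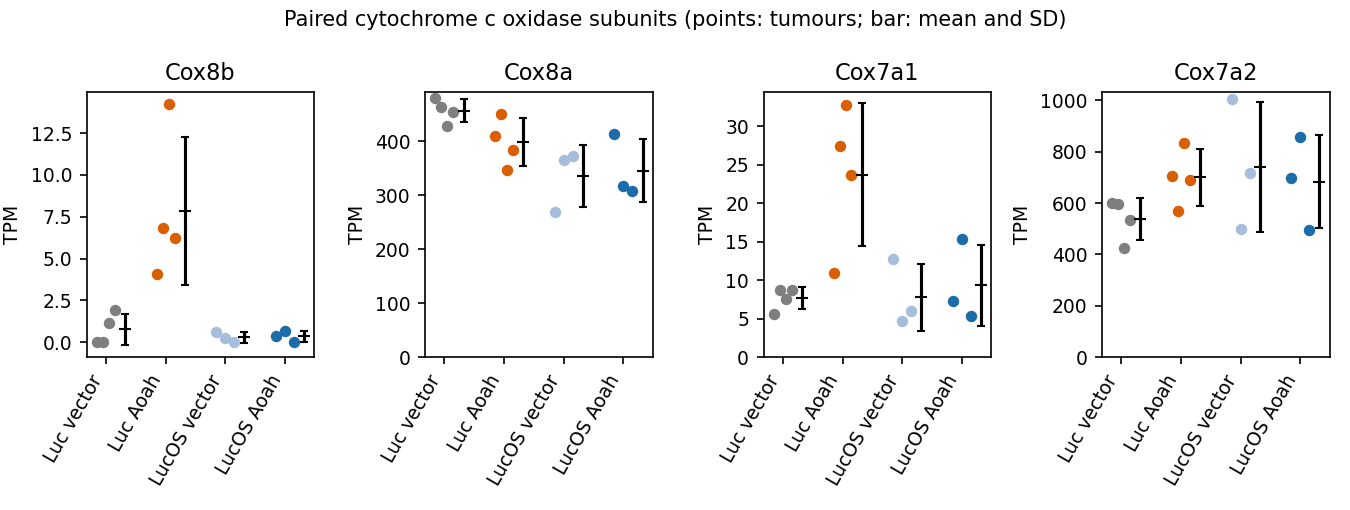
TPM of the subunit pairs Cox8b and Cox8a and Cox7a1 and Cox7a2 by group. Points are tumours and the bar beside them is the mean with its SD (n = 4 for Luc and 3 for LucOS groups). Cox8b lies at 4.06 to 14.2 TPM in Luc Aoah tumours and below 2 TPM in all others.

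Levels of fat and muscle markers were set beside these isoforms, and calls among them beside 7.93% of all genes higher in Luc. Ucp1, the defining gene of brown fat, was listed at 0 in all Luc and all LucOS Aoah tumours and reached 0.03 TPM in 1 LucOS vector tumour. Of 5 brown fat markers 4 were tested and Fabp4, which endothelial cells and macrophages also express, rose. Their summed level was 114 to 160 TPM in Luc Aoah tumours, while in the vector ones it was 49.8 to 104 TPM. Of 7 striated muscle markers measured, 3 were tested and Tnni2 rose, at 1.02 to 1.78 TPM against 0.23 to 0.76 TPM. Their summed level was 12.6 to 19.9 TPM against 11.6 to 22.4 TPM, and the muscle enzyme Ckm stood at 5.60 to 12.3 TPM against 5.16 to 15.7 TPM. In LucOS tumours the summed brown fat level was 62.7 to 116 TPM and the summed muscle level 6.99 to 16 TPM. The part of such cells in the Cox8b and Cox7a1 differences was not tested.

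In complex V the 5 nuclear subunits of the catalytic head and its central shaft had a median of -0.24, the same as all genes, and the 12 of the peripheral stalk and membrane part a median of 0.38. None passed with limma. In the authors' deposited table, where 15.6% of all genes were higher, the head had a median of 0.05 with 1 of 5 higher, near that share. It was Atp5e (adjusted p = 0.0114). The stalk and membrane part had a median of 0.69 there with 7 of 12 higher, among them Atp5md (adjusted p = 0.00655). Atp5b, the catalytic beta subunit and the most abundant nuclear member of the complex, stood at 2016, 2069, 1628 and 2030.2 TPM in Luc Aoah against 2294, 2109, 2280.13 and 2437 TPM in Luc vector tumours (-0.24, SE 0.17, limma adjusted p = 0.287). All Luc Aoah tumours lay below all Luc vector tumours, by a small margin. The small epsilon subunit gene Atp5e stood at 1486, 1012, 1924 and 1449.85 TPM against 923, 1102, 564 and 711 TPM, with overlap (0.84, SE 0.31, limma adjusted p = 0.0644). Atp5md, a small membrane subunit, differed by 0.88 (adjusted p = 0.0671).

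**Figure D4:**
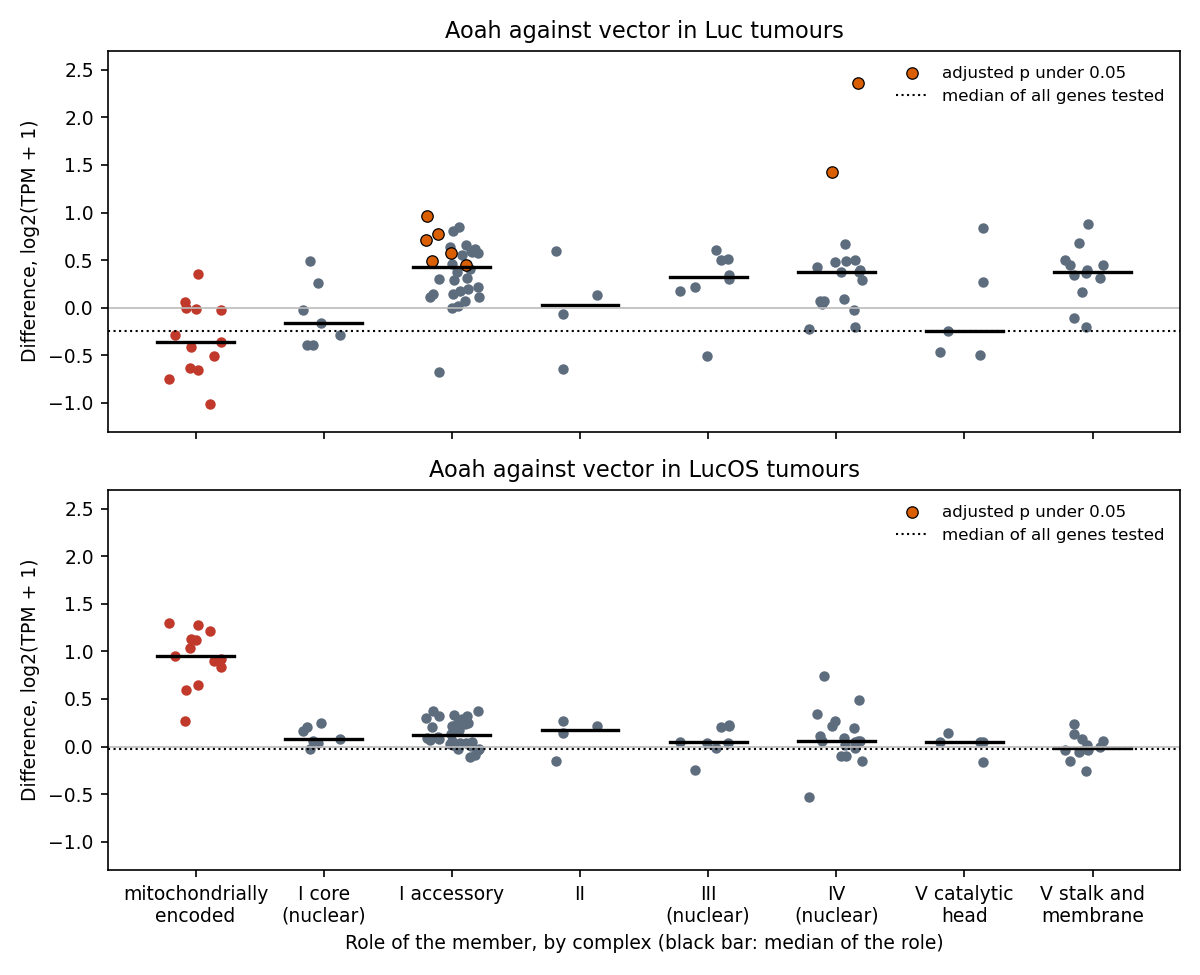
Difference with Aoah, log2(TPM + 1), of each member in Luc (upper panel) and LucOS tumours (lower panel), by role. Points are genes, black bars the median of a role, the dotted line the median of all genes tested, and outlined points passed an adjusted p of 0.05. In Luc tumours 6 accessory subunits of complex I and 2 subunits of complex IV passed, and in LucOS tumours none did.

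Except for Cox8b and Ndufb3, which passed with any 1 tumour left out, the calls in Luc tumours depended on single tumours. Cox8b passed under all 27 other settings tried and Ndufb3 under 26, Cox7a1 under 21, Ndufs5 under 18, Ndufb4c under 15, Ndufa11 and Ndufb8 under 14 each and Ndufa1 under 11. Cox8b met the filters through the Luc Aoah tumours, where it was high, and also passed with no filter. Adjusted p over these settings ran from 7.9e-05 to 0.0236 for Cox8b, from 0.000821 to 0.140 for Ndufb3, from 6.1e-05 to 0.195 for Cox7a1 and from 0.0223 to 0.3197 for Ndufa1. The 8 rises became 3, 20, 2 and 2 without Luc Aoah 1, 2, 3 and 4, and 2, 16, 2 and 3 without Luc vector 1, 2, 3 and 4. Members that fell numbered 6 without Luc Aoah 2 and 3 without Luc vector 2, and none without any other tumour. Leaving out LucOS tumours, which changes the shared estimate of spread and which genes are tested, gave 4 rises without LucOS Aoah 1, 14 without LucOS Aoah 3, and 13, 14 and 4 without LucOS vector 1, 2 and 3. Without Luc vector 1 and 3 together, the vector tumours with raised Aoah, only Cox8b passed.

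Transcript length ran with the Luc differences. Nuclear members are short: the median length was 625 bases over 85 members with a length, against 2366 bases over 11463 other protein-coding genes, and 44.7% of members but 3.10% of the others had 600 bases or fewer. Among those of 600 bases or fewer the median difference was 0.45 for 38 members and 0.19 for 355 other genes. It was 0.26 against 0.19 above that and up to 1000 bases (27 members), 0.15 against -0.09 up to 2000 bases (16 members) and -0.57 against -0.47 above 2000 bases, where there were only 4 members. Spearman's rho between length and difference was -0.47 across members and -0.41 across the other genes, which are not independent replicates. In LucOS rho was -0.08 and -0.04, and for LucOS against Luc among vector tumours -0.34 and -0.30. For the difference between the Aoah effects it was 0.36 and 0.40, and for LucOS against Luc among Aoah tumours 0.10 and 0.32.

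After the trend of each tumour on length was subtracted, an alternative added after the data were seen, the median of nuclear members in Luc was 0.22, and 6 of the 8 calls remained: Cox8b (2.15, adjusted p = 0.00196), Cox7a1 (1.23), Ndufb3 (0.58), Ndufb4c (0.76), Ndufa11 (0.41) and Ndufs5 (0.34). Ndufb8 and Ndufa1 no longer passed. Under this setting 3 members fell, the accessory subunit Ndufa10 by 0.44, the head subunit Atp5d by 0.55 and the membrane ring subunit gene Atp5g2 by 0.39. The part of RNA integrity or library preparation in the length trend was not tested.

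**Figure D5:**
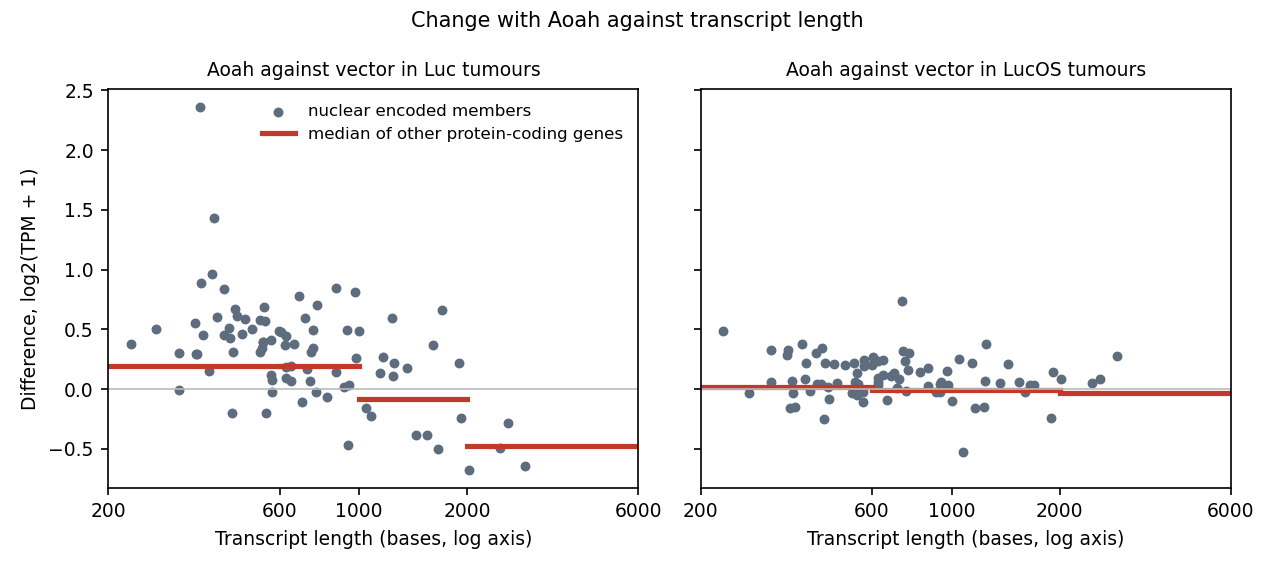
Difference with Aoah, log2(TPM + 1), of each nuclear encoded member against its transcript length in bases (log axis), in Luc (left) and LucOS tumours (right). Red bars give the median of other protein-coding genes in 4 length classes, which falls from 0.19 in the shortest to -0.47 in the longest class in Luc and lies between -0.03 and 0.02 in LucOS.

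The same question in the antigen-bearing tumours gave the reverse balance of the genomes. In LucOS all 13 mitochondrial members lay higher with Aoah, with a median of 0.95, whereas 86 nuclear members had a median of 0.06 and all genes -0.02. No member passed with limma in either direction, against 0.750% of all genes higher and 0.215% lower. At an unadjusted p under 0.05 there were 6 of 13 mitochondrial and 3 of 86 nuclear members, against 12.3% of all genes. The mitochondrial members are not independent replicates, so counts over them are not 13 separate results. The LucOS Aoah tumours lay above all LucOS vector tumours for 7 of 13 mitochondrial members and 5 of 86 nuclear members, against 6.22% of all genes, and below for 1 nuclear member, Cox7a2l, against 6.07%.

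mt-Atp6, the proton channel subunit of complex V, had the smallest p of the members. It stood at 1574, 1497 and 2777 TPM in LucOS Aoah and at 822, 1160 and 669.53 TPM in LucOS vector tumours, without overlap (1.12, SE 0.36, limma adjusted p = 0.174). In the authors' deposited table it was the only member that passed (log2 fold change 1.09, adjusted p = 0.0365), against 1.99% of all genes higher and 0.780% lower there. Summed with Gm10925, which held most of the reads, mt-Atp6 stood at 14487, 14410 and 33140 TPM against 9538, 14399 and 7125 TPM, where LucOS Aoah 2 and LucOS vector 2 nearly met (0.94, SE 0.41, limma adjusted p = 0.366). mt-Co1, the catalytic subunit of complex IV, stood at 9497, 10384 and 29286 TPM against 6775, 10665 and 5539 TPM, with overlap (0.95, SE 0.46, limma adjusted p = 0.425).

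The balance depended on LucOS Aoah 3. The mitochondrial median minus the nuclear median was 0.89 in LucOS, and 0.30 without that tumour, where the mitochondrial median was 0.56 and the nuclear one 0.26. Without any other tumour it lay between 0.66 and 1.25. In Luc the same value was -0.69, and it became -0.31 without Luc Aoah 3, -0.41 without Luc vector 3 and -0.33 without Luc vector 1 and 3 together. The SD between replicate tumours of the median mitochondrial minus the median nuclear level was 0.74 on this scale. That SD describes single tumours and does not measure the spread of a difference between groups, which was not estimated. Among nuclear members the smallest p in LucOS belonged to Cox7a2l, counted here in complex IV. It stood at 274, 259 and 190 TPM with Aoah and at 357, 307 and 367 TPM with vector, without overlap (-0.53, SE 0.19, limma adjusted p = 0.250).

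The Aoah effects of the models were then set against each other directly. No member passed the test of the difference (LucOS effect minus Luc effect), in a contrast where 0% of all genes were higher and 0.00743%, or 1 gene, lower. All 13 mitochondrial members had positive values with a median of 1.24, against -0.18 for nuclear members and 0.23 for all genes, and 7 of 13 and 3 of 86 had an unadjusted p under 0.05, against 10.2% of all genes. Here too the 13 mitochondrial values are not independent. mt-Nd4 differed by 2.04 (SE 0.80, limma adjusted p = 0.443) and Cox8b by -2.30 (SE 0.58, limma adjusted p = 0.443). The mitochondrial minus nuclear median was 1.42, and 0.88 without LucOS Aoah 3.

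Luc and LucOS tumours were also compared within each plasmid arm. Among vector tumours no member passed, as for all genes (0% in both directions), and 0 of 13 mitochondrial and 11 of 86 nuclear members had an unadjusted p under 0.05, against 14.2% of all genes. In 15 nuclear members all LucOS vector tumours lay below all Luc vector tumours, against 7.63% of all genes, and in none above, against 2.12%. These included Atp5a1 and Atp5b of the catalytic head of complex V, Ndufv1, Sdhb, Uqcrc1, which differed by -0.81, and Cox8a, which differed by -0.46. The nuclear median was 0.02 against -0.25 for all genes, and the mitochondrial median of -0.22 became 0.07 with median-ratio scaling. The mitochondrial minus nuclear median of -0.24 was -0.59 without LucOS vector 2, -0.02 without LucOS vector 3, -0.50 without Luc vector 2 and 0.08 without Luc vector 3.

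Among Aoah tumours Cox8b was the only member that passed, lower in LucOS by 2.62 on the log2 scale (SE 0.41, limma adjusted p = 0.0369), where 0.0817% of all genes were lower and 0% higher. Cox8b met the filter through the Luc Aoah tumours, the higher group here, and did not pass with no filter. It passed under 10 of 26 other settings (adjusted p 0.0176 to 0.321), and not without Luc Aoah 2, 3 or 4, any of the LucOS Aoah tumours, LucOS vector 1 or 3, or Luc vector 3. All 13 mitochondrial members were on the higher side in LucOS, with a median of 1.03 against -0.16 for nuclear members. The groups did not overlap for 7 mitochondrial members, against 2.20% of all genes, and 6 nuclear members lay lower in every LucOS Aoah tumour, against 5.28%. At an unadjusted p under 0.05 there were 11 of 13 mitochondrial and 2 of 86 nuclear members, against 7.01% of all genes. Since the mitochondrial members are not independent replicates, the 11 are not separate results. The mitochondrial minus nuclear median was 1.19, and 0.56 without LucOS Aoah 3.

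Other genes of the organelle were counted by list, beside 7.93% of all genes higher and 14.3% lower in Luc by the same limma rule. In Luc tumours the list for assembly of complexes II to V had 7 of 34 genes higher and none lower with Aoah (median 0.21), among them the copper chaperone Cox17 (0.53, adjusted p = 0.0355) and Coa6 (0.79, adjusted p = 0.0109), which also serves copper delivery to complex IV. Mitochondrial ribosomal proteins had 6 of 78 higher and none lower (median 0.16), a share near that of all genes, with Mrpl14 at 0.84. Regulators of mitochondrial biogenesis had none higher and 4 of 15 lower (median -0.33), among them the coactivator Ppargc1a, at 0.81 to 3.11 TPM against 2.98 to 5.41 TPM, and Gabpb2. In mitochondrial RNA stability and processing 1 of 22 was higher and 3 lower, shares near those of all genes. Among the lower was Lrpprc, which stabilises mitochondrial mRNA, at 31.0 ± 15.6 against 63.0 ± 17.4 TPM (SD, n = 4 each, difference -1.08, limma adjusted p = 0.0291). Coenzyme Q synthesis had 2 of 13 higher, Coq8a and Coq10b. Complex I assembly (18 genes), the tricarboxylic acid cycle (17 genes, median -0.43) and mitochondrial import (38 genes) had none in either direction, and mitochondrial DNA maintenance 1 of 18 lower. The subunits outside the symbol patterns (6 genes) and nuclear retained RNA (7 genes) had none either, and the paired isoforms 2 of 15 higher, Cox8b and Cox7a1. Cytosolic ribosomal proteins, short and abundant like the members, had none higher and 14 of 84 lower (median -0.16), also near the share of all genes. Transcript length was not taken into account in these counts. In Luc, protein-coding genes other than the members had a median of -0.47 above 2000 bases and 0.19 at 600 bases or fewer. In LucOS tumours none of these lists held a call.

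Markers of other cells were counted in the same way, beside 7.93% of all genes higher and 14.3% lower in Luc. T cell markers had 8 of 11 higher with Aoah (summed 55.3 to 95.9 TPM against 5.94 to 19.2 TPM), B and plasma cell markers 3 of 4 tested, stellate cell markers 4 of 9, endothelial markers 3 of 8 and macrophage markers 2 of 10, whereas neutrophil markers had 4 of 5 and cholangiocyte markers 1 of 3 lower. None of 6 erythroid markers passed. Hepatocyte markers had 3 of 15 higher and 1 lower in Luc, and 1 higher in LucOS, where T cell markers had 2 of 11 higher. Among all genes 0.750% were higher and 0.215% lower in LucOS. The part of these cells in the respiratory chain differences was not tested, and in bulk tumours fewer cells of a type and less RNA per cell cannot be told apart.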

How the data were processed

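Members and gene lists were chosen with earlier results of these data known. Per the submitters' processing notes, RSEM, DESeq2 and build mm39 were used, without versions; the aligner and depth are not given in the sources used here, and the protocol in the labels describes directional and non-directional libraries without saying which was made, so genes that overlap on opposite strands, such as mt-Nd5 and mt-Nd6, may share reads. The authors deposited log2 values of TPM plus 1 for 29923 symbols in 14 tumours and, in their own comparison tables, log2 fold changes with p-values and adjusted p-values, in which Aoah was taken as the numerator because Aoah itself was positive there. TPM keeps no depth, so no count test and no detection limit could be given.

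Genes at 1 TPM or more in at least 3 tumours were fitted with limma 3.58.1 in R 4.3.3, with 1 mean per group over all tumours, a variance trend and robust moderation, and Benjamini-Hochberg adjustment over 13466 genes at 0.05. Adjusted p-values are from this limma fit unless another source is named. Differences on this scale understate changes of low genes. The fit was tested on simulated data.

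Named genes were the 13 mitochondrial members, called members or else the 3 smallest p per direction, the most abundant nuclear member per complex, paired isoforms, 2 genes per list and Aoah; members named beside these were chosen after their values were seen. Not every gene that the rule names is reported here. Other settings were the pseudocount, filters, scalings, blocks, left-out tumours, the groups of a contrast alone and the authors' deposited table, with 2 added after the data were seen (nuclear copies summed, length trend removed). GENCODE M21 (GRCm38) gave transcript lengths and copies, and RefSeq the promoters. The repertoire table was not used here.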

Additional observations from a re-analysis of the deposited data

Results flagged for a closer look

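In groups of 4 tumours a value that lay far from the other 3 was looked for in 106 sets of named members and shares, and 6 were found; chance alone gives about 1 in 20. In Luc Aoah 4, mt-Nd3 stood at 4084 TPM, and its 3 replicates ranged from 2180 to 2316 TPM. Ndufs5 stood at 338.6 TPM in the same tumour against 295 to 300.42 TPM. Atp5b stood at 1628 TPM in Luc Aoah 3 against 2016 to 2069 TPM, and Atp5g1, which encodes a subunit of the membrane ring, at 276 TPM there against 356 to 371 TPM. In Luc vector 2, Cox7a2l stood at 451 TPM against 322 to 339.94 TPM in its replicates, and Cox4i2 at 3.42 TPM against 0.19 to 0.53 TPM.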

How the results depend on the processing

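With no filter on low values 2 members rose in Luc tumours, in place of 8. Quantile normalization gave 5 higher and 6 lower, the Luc groups alone 20 higher, and the fit without both Luc vector tumours with raised Aoah 1 higher. The authors' deposited table, as an alternative source, gave 42 higher and 1 lower. Removal of the length trend, chosen after the data were seen, gave 6 higher and 3 lower. When single tumours were omitted, 2 to 20 members rose and 0 to 6 fell in Luc. In LucOS the authors' deposited table gave 1 higher. The 1 member lower in LucOS among Aoah tumours became 0 with a pseudocount of 0.1, no filter, a filter of 5 TPM, scaling to RNA that is neither mitochondrial nor small, the contrast's groups alone or the raised vector tumours left out, and 0 to 1 with single tumours left out. The mitochondrial minus nuclear median, with each tumour left out, ran from -0.94 to -0.31 in Luc, 0.30 to 1.25 in LucOS, 0.88 to 1.80 for the difference between models, -0.59 to 0.08 among vector and 0.56 to 1.57 among Aoah tumours.

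The replicate numbers shared by the groups are not stated to mark paired tumours. Same-numbered tumours had correlations of their deviations from group means of -0.554 to 0.0956. Of 7 Luc and LucOS Aoah tumours, 1 correlated best with its own number. Groups of 3 or 4 tumours are too few for these correlations to decide whether a litter, day or batch was shared. With the replicate number as a block 3 members rose in Luc (Cox8b, Cox7a1 and Ndufb3) and 0 were lower in LucOS among Aoah tumours; the other counts stayed at 0. Depth is unknown, so levels near 0, such as those of Cox8b in vector tumours, have no stated limit.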
